A study of Mus musculus with 6 samples.

Results

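The genes described here are 10 genes of calcium handling in the sarcoplasmic reticulum, the calcium store of the muscle fiber. They are Atp2a1, Atp2a2, Sln, Pln, Casq1, Casq2, Cacna1s, Ryr1, Jph1 and Pvalb. The genes were listed by symbol, but with earlier results of these data known, so the choice was not independent of the data. All 10 were found among the 55416 genes of the count table, and all 10 passed the filter on low counts that left 15623 genes for testing. RNA sequencing had been done on tibialis anterior (TA) muscle, a fast muscle of the lower leg, from 3 WT and 3 SELENOW KO mice aged 24 months, to look for the genes that change when selenoprotein W is lost in aged muscle. Both genotypes were kept on a C57BL/6N background, were male as the study's aged mice were unless stated otherwise, and aged naturally with no other treatment given. The KO line carried a CRISPR deletion of exon 4 of Selenow with no restriction to muscle stated, and each library came from muscle tissue and not from isolated fibers. Fewer cells of one kind and less RNA per cell therefore cannot be told apart.

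In a muscle fiber, the voltage sensor Cacna1s in the surface membrane opens the release channel Ryr1 in the reticulum, and junctophilin (Jph1) holds the membranes together at the triad. Calcium stored on the calsequestrins (Casq1, Casq2) then floods the cytosol, is bound for a time by parvalbumin (Pvalb), and is pumped back by the SERCA pumps (Atp2a1, Atp2a2), which small membrane peptides such as sarcolipin (Sln) and phospholamban (Pln) inhibit. Fast fibers are known for Atp2a1, Casq1 and Pvalb, whereas slow fibers and heart use Atp2a2, and Casq2 is the cardiac and slow form of calsequestrin.

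The inhibitory peptides are among the smallest proteins of the muscle, and their coding sequences are shown because the results on pump regulation turn on them. Sln and Pln are members, and Mrln, which encodes the related peptide myoregulin of skeletal muscle, is the pump regulator that passed the study's thresholds. The sequences are from GENCODE M21 (GRCm38, plus strand), start and stop codons are in capitals, and each lies within a single exon. The Sln coding sequence is at chr9:53853473-53853568 and has 31 codons before the stop, that of Pln is at chr10:53343864-53344022 with 52 codons, and that of Mrln is at chr10:70219496-70219636 with 46 codons.
Sln: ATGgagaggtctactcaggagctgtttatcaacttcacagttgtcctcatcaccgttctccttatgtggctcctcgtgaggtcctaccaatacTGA
Pln: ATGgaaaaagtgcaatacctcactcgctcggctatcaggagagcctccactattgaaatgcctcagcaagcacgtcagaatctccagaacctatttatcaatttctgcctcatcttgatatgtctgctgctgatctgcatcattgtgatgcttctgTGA
Mrln: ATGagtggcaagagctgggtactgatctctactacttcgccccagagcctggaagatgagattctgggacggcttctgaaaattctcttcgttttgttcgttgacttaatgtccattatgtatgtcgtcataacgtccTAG

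The libraries held 25351976 to 29111213 counts, and the 10 genes took 1.26% to 1.92% of them. Mitochondrially encoded genes took 29.1% to 37.3% of the counts in WT and 35.4% to 40.3% in KO. Levels are given as CPM, counts scaled to a common library size with TMM factors, a trimmed mean method that sets libraries on one scale. Selenow itself had a CPM of 268, 245 and 219 across WT replicates 1, 2 and 3. Its CPM was 193, 212 and 210 across KO replicates 1, 2 and 3. Every KO library lay below every WT library, as was so for 7.87% of all tested genes. Selenow was not called in edgeR or DESeq2, with a log2 fold change of -0.25 ± 0.14 (SE; edgeR adjusted p = 0.604). The counts cover the whole gene and not exon 4 alone. The 10 fast fiber markers summed to a CPM of 76673 to 96634 in WT and 85057 to 98441 in KO, and the 8 slow fiber markers to 40.2 to 81.0 and 33.7 to 54.0. Pairs of libraries within a group were compared on raw counts of the tested genes, without TMM factors and with mitochondrial genes included. By this measure WT replicate 1 differed most from its group (chi-square per degree of freedom 79.3 and 57.6 against the other WT libraries, which differed by 25.7 from each other, and 21.0 to 35.9 between KO libraries). Mitochondrial genes took 37.3% of the counts in WT replicate 1, against 29.1% and 29.8% in WT replicates 2 and 3. WT replicate 3 had the highest summed level of leukocyte markers (55.1, against 11.0 to 22.4 in the other libraries) and of fibroblast markers (166, against 52.7 to 99.1), while its slow fiber sum of 81.0 was near the 72.4 of WT replicate 1. Of 8 markers of denervated or regenerating fibers, Myog, Chrng, Chrna1 and Runx1 were called lower in KO without overlap (edgeR adjusted p of 0.299 to 0.469, Myog adjusted p = 0.0454 in DESeq2). Of all tested genes 3.14% were called lower in KO, and 7.87% were lower without overlap. The 8 markers summed to a CPM of 3033 to 4878 in WT and 3669 to 4949 in KO. Most of this was Myh8, at a mean of 3551 in WT and 4276 in KO (log2 fold change 0.27, not called). In WT replicate 3, 6 of the 8 markers were highest. Of the 7 cardiac markers, 3 passed the filter, and Myl7, an atrial light chain, was at 0 counts in every library. The cardiac markers summed to a CPM of 62.6 to 144 in WT, with WT replicate 3 the highest, and of 18.4 to 65.7 in KO. The 3 adipocyte markers summed to a CPM of 0.187 to 0.734, and the Schwann cell markers to 1.62 to 5.39.

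Levels of different genes were compared per kilobase of counted length. Pvalb was the most abundant of the 10 transcripts, with a CPM per kilobase of 3193 to 3859 over the 6 libraries, followed by Atp2a1 (2037 to 3123) and Casq1 (454 to 552). Each of these ranges lay apart from the next. Cacna1s (43.6 to 72.6), Ryr1 (36.6 to 59.4) and Jph1 (a lowest library of 31.7 and a mean of 41.4) followed with ranges that overlapped from one to the next, so their order was not resolved beyond the spread between libraries. Casq2 (3.90 to 13.2) and Atp2a2 (2.14 to 5.44) overlapped each other, as did Pln (0.773 to 1.93) and Sln (0.400 to 2.04) at the bottom. The plot of levels by library shows that the fast forms exceeded the slow forms in every library of both genotypes.

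**Figure D1:**
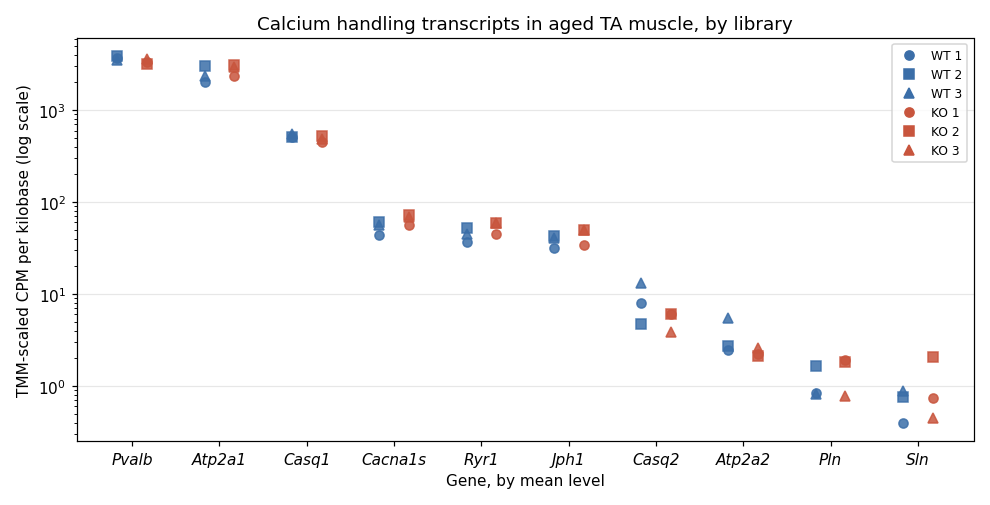
Level of each of the 10 transcripts in each of the 6 libraries, as TMM-scaled CPM per kilobase on a log scale, with WT in blue and KO in red and the replicate number given by the symbol. Pvalb and Atp2a1 lie above the other 8 genes in every library and Sln and Pln below them, and the genotypes overlap for every gene.

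None of the 10 genes differed between genotypes by the study's thresholds, an unadjusted p under 0.05 with a fold change over 1.5 or under 0.7, in edgeR's quasi-likelihood test, whereas 5.35% of all tested genes did. None had an unadjusted p under 0.05, which 9.89% of all tested genes had, and none had an adjusted p under 0.05, where all tested genes also gave 0. The adjusted p values of the 10 genes were 0.580 to 0.842 by edgeR's test with Benjamini-Hochberg adjustment over 15623 genes. In DESeq2, 2 of the 10 passed the same thresholds, Atp2a2 and Casq2, both lower in KO, against 4.94% of all tested genes, and neither had an adjusted p under 0.05 (0.423 and 0.441 in DESeq2). The WT and KO libraries overlapped for all 10 genes, while they did not overlap for 15.4% of all tested genes, 7.53% higher and 7.87% lower in KO. The log2 fold change of KO over WT was above 0 for 6 genes and below 0 for 4, with a median of 0.20, beside a median of -0.0043 over all tested genes.

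Among the pumps, Atp2a1, the fast fiber SERCA1 (chr7:126445858-126463108, GRCm38, minus strand), had a CPM of 7081, 10626 and 8233 across WT replicates 1, 2 and 3, against 8223, 10858 and 10334 across KO replicates 1, 2 and 3. WT replicate 1 was the lowest library and KO replicate 2 the highest, and the groups overlapped. The log2 fold change was 0.18 with a 95% interval of -0.25 to 0.62, and the study's 1.5-fold threshold lay within the interval. Atp2a2, SERCA2 (chr5:122453513-122502225, minus strand), had a CPM of 14.8, 16.7 and 33.1 in WT and of 13.7, 13.0 and 15.6 in KO. WT replicate 3 was 2.1 times the mean of the other WT libraries, and the 3 KO libraries lay within the range of WT replicates 1 and 2 or just under it. The log2 fold change was -0.61 ± 0.31 (SE; edgeR adjusted p = 0.580), and it came to -0.16 without WT replicate 3 but to -0.82 without WT replicate 1, where it passed the thresholds (edgeR unadjusted p = 0.0278, adjusted p = 0.513). Without any filter on low counts, edgeR gave Atp2a2 an adjusted p of 0.0144, the only alternative in which any of the 10 genes passed an adjusted threshold.

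The share of SERCA transcripts that came from Atp2a2, per kilobase, was 0.120%, 0.0895% and 0.229% across WT replicates 1, 2 and 3, against 0.0951%, 0.0684% and 0.0860% across KO replicates 1, 2 and 3. KO replicate 1 lay above WT replicate 2, so the groups overlapped. The log2 ratio of Atp2a2 to Atp2a1 was -9.53 ± 0.70 (SD) in the 3 WT and -10.24 ± 0.24 in the 3 KO libraries, a difference of -0.71 (exact permutation test, two-sided, p = 0.2, adjusted p = 0.5 over 5 ratios). Samples of 3 against 3 allow no p under 0.1. The difference was -0.33 without WT replicate 3. The slow fiber markers, whose summed CPM was 72.4, 40.2 and 81.0 in WT and 54.0, 35.0 and 33.7 in KO, were highest in WT replicates 3 and 1. Their log2 fold change was below 0 for 7 and above 0 for 1, with a median of -0.60. None of the 8 was called in edgeR. DESeq2 called 3 lower (Tnni1, Tnnc1 and Myoz2), against 4.94% of all tested genes in either direction, with 0 past an adjusted p of 0.05. The part of fiber type composition in the Atp2a2 values was not tested.

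Of the pump regulators, sarcolipin (Sln, chr9:53850164-53854560, plus strand) had few reads in every library. The reads counted for it came to 13, 32 and 35 across WT replicates 1, 2 and 3, against 24, 66 and 16 across KO replicates 1, 2 and 3, and the corresponding CPM was 0.527, 0.996 and 1.15 in WT and 0.967, 2.69 and 0.598 in KO. KO replicate 2 alone stood above the other libraries, at 3.44 times the mean of the other KO libraries. For Sln the log2 fold change was 0.65 with a 95% interval of -0.56 to 1.85, and it turned to -0.20 without KO replicate 2. Phospholamban (Pln, chr10:53337667-53345987, plus strand) had a CPM of 2.31, 4.54 and 2.27 in WT and of 5.32, 5.01 and 2.13 in KO. Its high libraries, WT replicate 2 and KO replicates 1 and 2, were thus found in both genotypes. For Pln the log2 fold change was 0.44 (95% interval -0.49 to 1.36), and it was 0.86 without WT replicate 2 and 0.76 without KO replicate 3, where the unadjusted p was 0.0428 and 0.0348 in edgeR's test and the adjusted p 0.517 and 0.595.

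Pln is also made in smooth muscle, and of the 4 smooth muscle markers, summed to a CPM of 19.6 to 26.7 in WT and 23.8 to 33.9 in KO, Myh11, the smooth muscle myosin, was called higher in KO, at 7.71 ± 1.89 (SD) over 3 WT and 13.6 ± 3.6 over 3 KO libraries, with log2 fold change 0.83 and edgeR adjusted p = 0.330. Of all tested genes, 2.21% were called higher in KO. The other smooth muscle markers were not called: Tagln was at 0.27 and Acta2 at -0.08 in log2 fold change, with Acta2 highest in WT replicate 3, and Cnn1 did not pass the filter. Myh11 and Tagln were higher in KO without overlap, as were 7.53% of all tested genes. The part of vessel cells in the Pln values was not tested. Pln lies wholly within Cep85l and over the transcript Gm47644, both on the opposite strand. No handling of strand is stated for the counts, so reads of Pln and of these genes cannot be told apart where their exons meet. Genes on the opposite strand also overlap Atp2a1 (Rabep2), Atp2a2 (Gm43361), Cacna1s (Gm37759), Casq1 (Gm17224), Jph1 (Gm28376) and Ryr1 (Gm26604, Gm38979 and Gm44408), whereas for Casq2, Sln and Pvalb none was found. Genes on the same strand overlap Casq2 (Gm43244 and 4632404M16Rik), Atp2a2 (Gm43359 and Gm43360), Cacna1s (Gm37014) and Ryr1 (Mir1963).

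The genes whose log2 CPM followed Sln most closely over the 6 libraries were Rnf169, Ganc, Npr3, Ocrl and 8430422M14Rik, with Pearson's r of 0.980 to 0.996 and Spearman's rho of 0.94 to 1.0 (n = 6 libraries, as a description). For Pln they were AC115631.1, Gm47644, Gm10825, an unnamed gene and Nmrk1, with r of 0.98 to 0.990 and rho of 0.77 to 1.0. The second of these is the transcript that overlaps Pln. In all, 29 genes had r over 0.95 with Sln and 25 with Pln.

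Relative to the pumps, Sln amounted to 0.211, 0.255 and 0.379 transcripts per 1000 SERCA transcripts across WT replicates 1, 2 and 3, against 0.323, 0.663 and 0.162 across KO replicates 1, 2 and 3, counted per kilobase. The highest and the lowest library were both KO. For Pln the values were 0.418, 0.542 and 0.352 in WT and 0.820, 0.586 and 0.264 in KO, where again the highest and the lowest library were KO. The log2 differences of 0.26 for Sln and 0.22 for Pln did not exceed the library spread (p = 0.8 and p = 0.7 by two-sided exact permutation, adjusted p = 0.8 for both), and they turned to -0.26 for Sln without KO replicate 2 and to -0.13 for Pln without KO replicate 1.

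**Figure D2:**
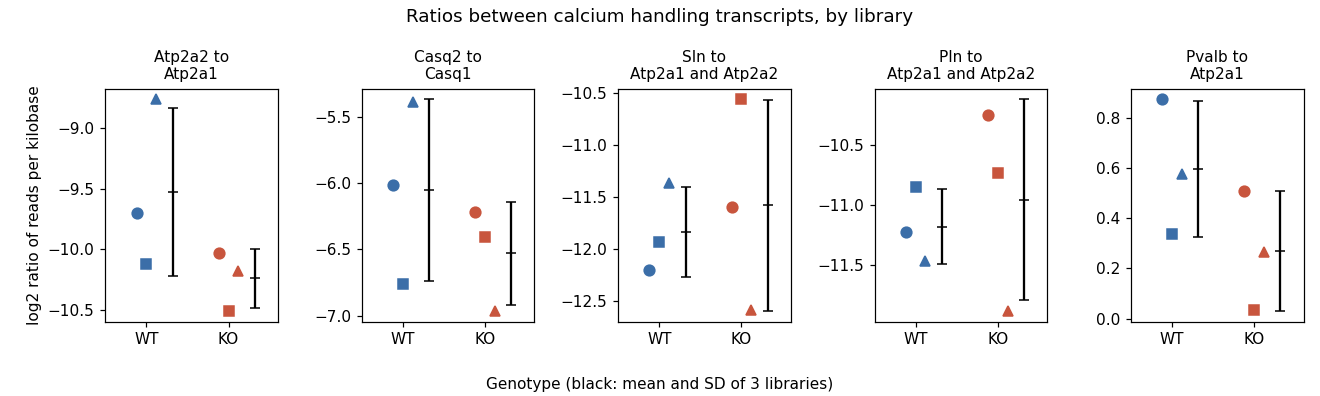
log2 ratio of reads per kilobase between calcium handling transcripts in each library, by genotype, with the mean and SD of 3 libraries in black. The genotypes overlap in all 5 ratios, and WT replicate 3 (blue triangle) is the highest library for Atp2a2 to Atp2a1 and for Casq2 to Casq1.

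Of the calcium store proteins, Casq1, the fast calsequestrin (chr1:172209894-172219868, minus strand), varied least between libraries with Pvalb. Its CPM was 996, 995 and 1076 across WT replicates 1, 2 and 3, against 886, 1012 and 952 across KO replicates 1, 2 and 3, a log2 fold change of -0.11 with a 95% interval of -0.43 to 0.22. Under TMM scaling this interval excludes a 1.5-fold change in either direction. On library totals without TMM factors the log2 fold change of Casq1 was -0.36. Casq2, the cardiac and slow calsequestrin (chr3:102086415-102146514, plus strand), had a CPM of 21.6, 12.8 and 36.0 in WT and of 16.7, 16.7 and 10.7 in KO. WT replicate 3 was 2.09 times the mean of the other WT libraries, and WT replicate 2 lay among the KO libraries. The log2 fold change was -0.68 ± 0.42 (SE; edgeR adjusted p = 0.655), and it was -0.23 without WT replicate 3 and -0.97 without WT replicate 2, where it passed the thresholds (edgeR unadjusted p = 0.00618, adjusted p = 0.354).

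Casq2 made up 1.52%, 0.911% and 2.33% of calsequestrin transcripts per kilobase across WT replicates 1, 2 and 3, against 1.32%, 1.16% and 0.792% across KO replicates 1, 2 and 3. The fast form thus made up nearly all of the calsequestrin message in every library. The log2 ratio of Casq2 to Casq1 differed by -0.48 between the genotypes (exact permutation test, two-sided, p = 0.4, adjusted p = 0.667). Casq2 and Atp2a2 shared their highest library, WT replicate 3, with 4 of the 8 slow fiber markers (Tnni1, Tnnt1, Tnnc1 and Myoz2), while Myl3 and Tpm3 were highest in WT replicate 1, Myh7 in KO replicate 2 and Myl2 in KO replicate 3. Casq1, the fast form, was highest in WT replicate 3 too (CPM 1076, against 886 to 1012 in the other libraries). WT replicate 3 was also the highest library for 6 of 8 markers of denervated or regenerating fibers, for 4 of 7 leukocyte markers and for all 4 fibroblast markers. The part of any of these in the difference between genotypes was not tested.

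The genes of calcium release had higher means in KO without passing the test. Cacna1s, the voltage sensor of the surface membrane (chr1:136052750-136119822, plus strand), had a CPM of 285, 395 and 372 across WT replicates 1, 2 and 3, against 365, 476 and 454 across KO replicates 1, 2 and 3. KO replicates 2 and 3 exceeded every WT library, and KO replicate 1 did not. For Cacna1s the log2 fold change was 0.30 (95% interval -0.07 to 0.67, edgeR adjusted p = 0.606). Ryr1, the release channel (chr7:29003344-29125179, minus strand), had a CPM of 799, 1139 and 987 in WT and of 986, 1283 and 1297 in KO. The same KO replicates 2 and 3 were above all WT libraries, with a log2 fold change of 0.29 (95% interval -0.11 to 0.68). Jph1, the junctophilin of skeletal muscle (chr1:16964560-17097889, minus strand), had a CPM of 158, 212 and 204 in WT and of 171, 250 and 247 in KO, a log2 fold change of 0.21 (95% interval -0.18 to 0.61).

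Atp2a1, Cacna1s, Ryr1 and Jph1 all had their lowest value in WT replicate 1 and their highest in KO replicate 2 or 3, and for each of them WT replicate 2 was the highest WT library. Without WT replicate 1 their log2 fold changes came to 0.06, 0.17, 0.16 and 0.09. On library totals without TMM factors, a scaling that moved the median of all tested genes to -0.25, they were -0.07, 0.04, 0.03 and -0.04, each above that median. Of the 10 fast fiber markers, 4 had the same order of WT libraries (Myh4, Tnnt3, Actn3 and Mybpc2) and 6 did not, among them Tnnc2 and Myl1, which were highest in WT replicate 1. The part of fast fiber content in the values of Atp2a1, Cacna1s, Ryr1 and Jph1 was not tested.

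Pvalb, the calcium buffer of fast fibers (chr15:78191114-78206400, minus strand), had a CPM of 3885, 4017 and 3674 across WT replicates 1, 2 and 3, against 3501, 3324 and 3717 across KO replicates 1, 2 and 3. Only KO replicate 3 reached into the WT range. For Pvalb the log2 fold change was -0.14 with a 95% interval of -0.48 to 0.21, which like that of Casq1 excludes a fold change past either threshold under TMM scaling. Over the alternative settings, the log2 fold change of Pvalb ranged from -0.38 to -0.04. The log2 ratio of Pvalb to Atp2a1 was 0.60 ± 0.27 (SD) in the 3 WT and 0.27 ± 0.24 in the 3 KO libraries, a difference of -0.33 (exact permutation test, two-sided, p = 0.2, adjusted p = 0.5).

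**Figure D3:**
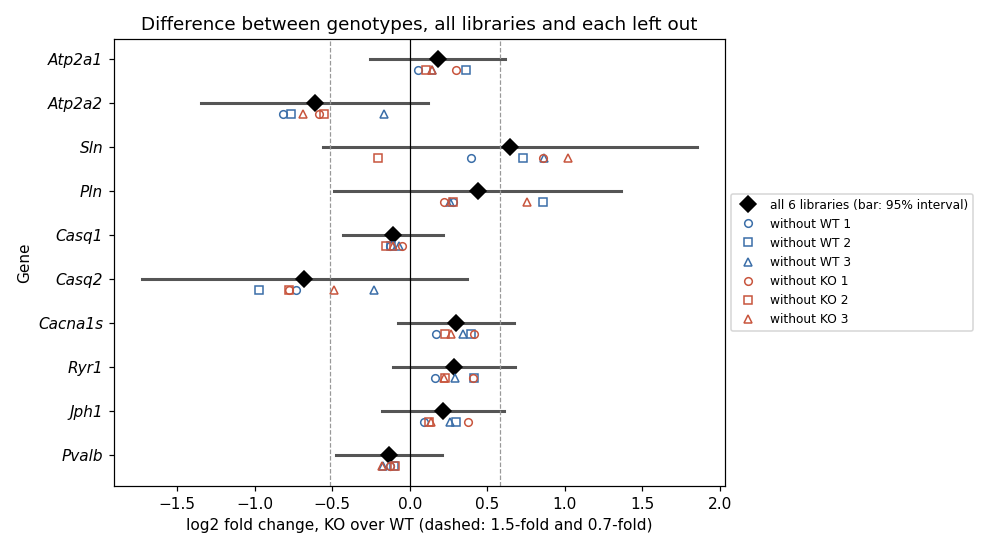
log2 fold change of KO over WT for the 10 genes, with all 6 libraries (black diamond, bar for the 95% interval) and with each library left out (open symbols); dashed lines mark 1.5-fold and 0.7-fold. Every interval covers 0, and leaving out WT replicate 3 brings Atp2a2 to -0.16 and Casq2 to -0.23, while leaving out KO replicate 2 brings Sln to -0.20.

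A list of 57 other genes of muscle calcium handling was examined beside the members, of which 54 passed the filter on low counts. In edgeR's quasi-likelihood test 3 passed the study's thresholds as higher in KO (2.21% of all tested genes did) and 1 as lower (3.14% of all tested genes), and 0 passed after adjustment (lowest adjusted p = 0.301). Without adjustment, 6 of the 54 had p under 0.05, against 9.89% of all tested genes. The median log2 fold change of the 54 genes was -0.017, and 25 were above 0 and 29 below. DESeq2 also called 3 higher and 1 lower, again with 0 past an adjusted p of 0.05.

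Myoregulin (Mrln), the SERCA inhibitor whose coding sequence is given above, was the gene called lower. Its CPM was 9.17, 9.65 and 7.90 across WT replicates 1, 2 and 3, against 5.88, 5.14 and 6.99 across KO replicates 1, 2 and 3. Every KO library lay below every WT library, and the log2 difference was -0.57 ± 0.16 (SE; edgeR unadjusted p = 0.00418, adjusted p = 0.301). The gene lies near the fold threshold, and its log2 fold change was -0.48 after an offset for gene length, -0.50 without WT replicate 2 and -0.46 without KO replicate 2, in which the threshold was not reached. Per kilobase Mrln, at a mean of 7.55 in WT and 5.09 in KO, was above both Pln and Sln. Strit1, which encodes the pump activator DWORF of slow fibers and heart, had 1 count in each of WT replicates 1 and 3 and 0 in the other libraries, under the 3 counts taken as the limit of detection.

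Slc8a3, the sodium-calcium exchanger of skeletal muscle, had a CPM of 26.4, 34.7 and 31.7 across WT replicates 1, 2 and 3, against 36.9, 59.0 and 45.6 across KO replicates 1, 2 and 3. All KO libraries lay above all WT libraries, with a log2 fold change of 0.61 ± 0.18 (SE; edgeR adjusted p = 0.316). It was past the fold threshold by a small margin, with 0.57 after an offset for gene length, 0.51 without WT replicate 1 and 0.42 without KO replicate 2. Itpr3, an inositol trisphosphate receptor, was called higher, at 0.915 ± 0.103 CPM (SD) over 3 WT and 1.73 ± 0.140 over 3 KO libraries, again without overlap, a log2 fold change of 0.92 ± 0.28 (SE; edgeR adjusted p = 0.338), and it passed the thresholds with each library left out. Antisense transcripts overlap Itpr3 (Itpr3os) and Slc8a3 (Gm3693). Atp2a3, the SERCA pump of blood and endothelial cells, had a CPM of 2.39, 1.84 and 1.68 in WT and of 4.35, 2.98 and 2.13 in KO, with KO replicate 3 inside the WT range. Its log2 fold change of 0.68 ± 0.28 (SE; edgeR adjusted p = 0.471) was 0.38 without KO replicate 1, and it also missed the p or the fold threshold without WT replicate 2 or 3. The 3 endothelial markers summed to a CPM of 75.5, 57.4 and 44.2 in WT and 71.5, 80.4 and 68.1 in KO. In log2 fold change Pecam1 was at 0.34, Cdh5 at 0.50 and Kdr at 0.06, and none was called. Cdh5 was higher in KO without overlap (edgeR adjusted p = 0.340), as were 7.53% of all tested genes. The part of endothelial cells in the Atp2a3 values was not tested.

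**Figure D4:**
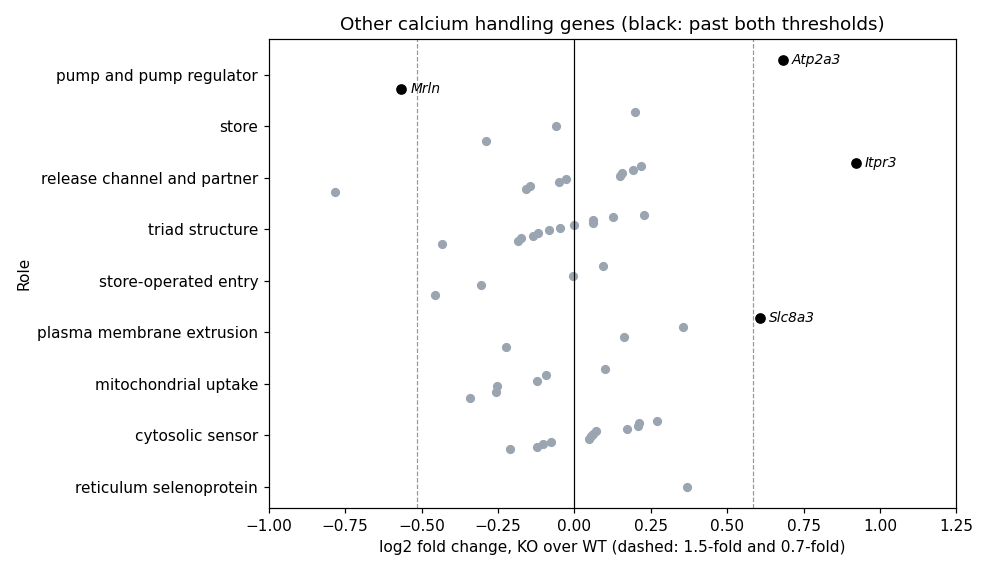
log2 fold change of KO over WT for 54 other calcium handling genes by role, with genes past both thresholds in black and named; dashed lines mark 1.5-fold and 0.7-fold. Atp2a3, Itpr3 and Slc8a3 are past the upper threshold and Mrln past the lower one, and the other 50 genes are in gray.

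Apart from these 4 genes, no gene of the list passed the thresholds. None of the 3 store genes passed: the histidine-rich calcium binding protein Hrc had a log2 fold change of 0.20 (95% interval -0.12 to 0.52) and sarcalumenin (Srl) of -0.06 (95% interval -0.45 to 0.33). Among 12 triad genes, triadin (Trdn), which anchors calsequestrin to the release channel, was at 0.23, Jph2 at -0.05 and Jsrp1 at -0.08, all in log2 fold change. Cav3, the caveolin of muscle, was chosen after its values were seen: its libraries did not overlap, at 14.5 ± 2.00 CPM (SD) over 3 WT and 10.7 ± 1.32 over 3 KO libraries, log2 difference -0.43, edgeR adjusted p = 0.381. The partners of the voltage sensor, Cacnb1, Cacna2d1, Cacng1 and Stac3, had log2 fold changes of 0.19, 0.22, -0.15 and -0.03.

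Of the other release channels, Ryr3 had a CPM of 0.374 to 1.12 in WT and 0.337 to 0.524 in KO (log2 fold change -0.78, 95% interval -1.82 to 0.26), and the cardiac Ryr2 had at most 1 count in any library. Over the whole list of 54 genes, 4 had KO libraries that all exceeded the WT libraries (Itpr3, Slc8a3, Atp2b1 and Atp2b4) and 5 had KO libraries all below them (among them Mrln, Cav3 and Orai1), beside 7.53% and 7.87% of all tested genes. Orai1, the channel of store-operated calcium entry and like Cav3 chosen after its values were seen, was at 10.6 ± 1.31 CPM (SD) over 3 WT and 7.75 ± 1.28 over 3 KO libraries without overlap, log2 difference -0.46, edgeR adjusted p = 0.403. Selenon, the selenoprotein of the reticulum that acts on calcium release and uptake, was at 0.932 ± 0.175 CPM (SD) over 3 WT and 1.20 ± 0.133 over 3 KO libraries (log2 fold change 0.37, 95% interval -0.32 to 1.06). The mitochondrial uniporter Mcu was at -0.09 in log2 fold change, and none of the 12 calcium sensors of the cytosol passed the thresholds.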

How the data were processed

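RNA of TA muscle from 3 WT and 3 SELENOW KO mice was sequenced as paired-end reads. The authors aligned the reads with Hisat2, counted them per gene with featureCounts, and deposited raw counts with no normalization. GRCm38 is named in the methods of the study and GRCm39 in the labels, so positions printed here are from GENCODE M21 (GRCm38) and not from the table. Strand and multiply mapped reads are not described, so paralogs and overlapping genes are uncertain. Genotype and replicate came from the sample labels, and the WT column without a number was taken as replicate 1 because the others name replicates 2 and 3. The study's legends give the replicates as mice, and within-group pairs differed by far more than sampling noise (chi-square per degree of freedom 21.0 to 79.3).

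Of 55416 genes, 52083 received a symbol through their Ensembl identifier, and Strit1 through its RefSeq synonym. Genes were kept with filterByExpr, scaled by TMM and compared by a robust quasi-likelihood fit in edgeR (version 4.0.16, R 4.3.3) with Benjamini-Hochberg adjustment, where the study used DESeq2. The 95% intervals come from the same fit. Ratios used counts per kilobase plus 1 read and an exact permutation test. Steps were tested on simulated data. Total counts were 25351976 to 29111213, so 3 counts, the limit of detection, equal a CPM of 0.0934 to 0.122. This covers counting error only.

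The members and gene lists were chosen with earlier results of these data known. Named genes are the members, Selenow, called genes of the wider list, a fixed set of its members and the nearest genes to Sln and Pln. Cav3, Orai1, Atp2b1, Atp2b4, Ryr2, Strit1, the marker genes and overlapping genes are outside this rule. Alternatives were DESeq2 (version 1.42.0), other scalings, other filters, robust estimation off, a replicate block, other thresholds and each library left out, and an offset for gene length was added after seeing the data.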

Additional observations from a re-analysis of the deposited data

How the results depend on the processing

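In edgeR 0 of the 10 members were called. The count was 2 with DESeq2 (Atp2a2, Casq2) and 1 (Atp2a2) with no filter on low counts, with robust estimation off and with the replicate block, and 0 to 2 with a library left out. The deviations of same-numbered libraries had correlations of 0.060, 0.044 and -0.074, beside -0.14 to 0.093 for libraries with different numbers. No pairing by number was seen, but 3 libraries per group cannot exclude one. The block gave a log2 fold change of -0.53 for Atp2a2. Of the wider list 4 genes were called, 2 after the length offset, and 0 with an adjusted p under 0.05 in the main test. With no filter on low counts, 1 gene of that list, Slc8a3, had an adjusted p under 0.05 (0.0160 in edgeR). With a library left out 2 to 5 were called, where 2 was reached without KO replicate 2, which took out Mrln and Slc8a3. On library totals without TMM factors the wider list held 1 higher and 5 lower calls, and the log2 fold changes turned to -0.072 for Atp2a1, -0.041 for Jph1, -0.052 for Hrc, -0.024 for Trdn, -0.058 for Cacnb1 and -0.048 for Cacna2d1, a scaling that shifts all genes to a median of -0.25. Over all tested genes 836 were called, 1780 with no filter and 1792 on library totals. Stac3 turned to 0.0094 after the length offset. With a library left out, the log2 fold change ranged from -0.20 to 1.02 for Sln, -0.19 to 0.10 for Srl, -0.15 to 0.067 for Jph2, -0.15 to 0.042 for Jsrp1, -0.078 to 0.026 for Stac3, -0.28 to 0.059 for Cacng1 and -0.15 to 0.020 for Mcu. The difference in ratio ranged from -0.26 to 0.76 for Sln and from -0.13 to 0.69 for Pln relative to the pumps. The cause of these changes was not tested beyond the libraries and settings named.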

Other observations

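The difference between genotypes moved with gene length over all tested genes. The median log2 fold change was -0.14 in the fifth of genes with the shortest counted length (36 to 1576 bases) and 0.08 in the fifth with the longest (6962 to 123179 bases). Among genes with a mean CPM over 50, to which 6 of the members belong, the medians were -0.048, -0.088, -0.023, 0.0057 and 0.070 from the shortest genes to the longest, a smaller spread with no steady rise. The counted lengths of the members run from 1041 bases for Pvalb to 21838 for Ryr1. With an offset for length the log2 fold change of Ryr1 was 0.13 in place of 0.29, that of Cacna1s 0.25 in place of 0.30, and that of Pvalb -0.04 in place of -0.14, while that of Atp2a1 was 0.19 in place of 0.18.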
